A study of Mus musculus with 6 samples.

Results

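The genes described here are those of the integrated stress response, a set of 48 listed genes around the transcription factor ATF4 and the supply of amino acids. They were chosen by name: stress kinases, ATF4 and its partner factors, amino acid enzymes and transporters, and the enzymes that charge tRNAs. Earlier results of these data were known when this list and the related lists below were made. Of the 48, 45 had a row of their own on the array, out of 22180 genes tested. Pycr1 was not analysed here, and Slc6a9 and Aars stood only on rows shared with another gene and were left out.

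The arrays, of a single colour, profiled mouse embryonic stem cells (ESCs), with 3 samples of Dgcr8-/- ESCs carrying a control hairpin and 3 of Dgcr8-/- ESCs expressing miR-302 (labelled sh-miR-302, and elsewhere as mimics of it). Both groups lack Dgcr8, the partner of the nuclease Drosha, so the controls make no canonical miRNAs either, and the comparison is between cells with and without 1 restored miRNA family. Per the labels, samples within a group are biologically independent. They do not say which members of the miR-302 family the construct encodes, whether the lines are clones, or at which passage they were taken. Values are log2 expression levels after RMA, a method that corrects background and equalises the distributions of the arrays, so a shift shared by all genes could not be seen. With 3 arrays a group, precision is limited and p-values measure the spread between these samples.

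When amino acids run short, or when unfolded protein or other stress is sensed, kinases phosphorylate the translation initiation factor eIF2. General protein synthesis then falls, while the mRNA of ATF4 is translated better. ATF4 pairs with C/EBP family proteins on a DNA element in its target genes and raises enzymes, transporters and tRNA synthetases that restore amino acid supply. Because ATF4 is set largely through translation and protein stability, the level of its own mRNA is not a measure of the protein. Mouse ESCs are known for a strong dependence on one-carbon units, which the serine and glycine enzymes of this programme help to provide.

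Sequences of the miR-302 family are shown because the labels name this family as what distinguishes the groups. Which of its members the cells expressed is not given, and miR-302a-3p was not among the sequences at hand. RefSeq (GRCm38.p6) gave the mature 3p strands of miR-302b, miR-302c and miR-302d, all from mouse chromosome 3, printed 5′ to 3′ with bases 2 to 8, the seed that pairs with target mRNAs, in capitals.
mmu-miR-302b-3p: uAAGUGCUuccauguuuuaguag
mmu-miR-302c-3p: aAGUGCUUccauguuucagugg
mmu-miR-302d-3p: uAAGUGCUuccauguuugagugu
The seed of miR-302b and miR-302d was AAGUGCU. In miR-302c the same 7 bases lay at positions 1 to 7, because its listed sequence starts 1 base later.

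The DNA element of ATF4 is shown for the promoters that hold it. It was searched as TGATGNAA, with N for any base, on both strands, in the RefSeq windows from 250 bases before to 50 after each gene's start. Of the 48 genes, 39 had such a window, and 14 of these (35.9%) held a match, against 4.51% of all 27025 genes with a window. The matches were in 4 of 17 members that fell, 8 of 17 that were not called, and in Aars and Pycr1, which were not measured. Neither of the members that rose held one. Each line gives 30 bases on the strand that reads TGATGNAA, with the match in capitals. The first 4 are the members that fell, and the other 3 are well-studied ATF4 targets that were not called.
Trib3 (chr2:152344028-152344057, plus strand): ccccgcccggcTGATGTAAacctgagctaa
Slc1a4 (chr11:20332699-20332728, plus strand): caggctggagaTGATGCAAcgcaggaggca
Iars (chr13:49682126-49682155, minus strand): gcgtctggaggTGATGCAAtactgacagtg
Tars (chr15:11399655-11399684, plus strand): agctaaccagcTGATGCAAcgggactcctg
Asns (chr6:7693214-7693243, minus strand): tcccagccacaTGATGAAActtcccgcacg
Atf3 (chr1:191183425-191183454, plus strand): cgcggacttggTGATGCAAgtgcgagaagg
Chac1 (chr2:119351038-119351067, minus strand): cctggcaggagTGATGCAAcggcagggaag
A match is a description of these letters and does not show that ATF4 binds there.

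With miR-302, 23 of the 45 measured genes fell, 2 rose and 20 were not called (limma, adjusted p under 0.05 over all 22180 genes). That is 51.1% lower and 4.44% higher, against a background of 9.25% lower and 7.18% higher over all genes. These shares describe a list that was made with earlier results of these data known. The falls were small, between 1.18-fold and 2.0-fold, and 6 of them reached 1.5-fold. They covered the serine and one-carbon enzymes, most amino acid transporters, 6 of the 11 tRNA synthetases measured and all measured eIF2 kinases of the list. The genes that rose were Ddit4 and Cbs. The median log2 change of the 45 genes was −0.26, and that of all genes tested was 0.01. All miR-302 arrays lay below all control arrays for 30 of the 45 genes and above them for 5, where 19.0% and 16.8% of all genes did so. Of the 45, 43 lay at or above the median level of all genes, where changes are called more often: among such genes alone 29 of the 43 members were lower (67.4%), against 22.4% of 11090 genes.

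**Figure D1:**
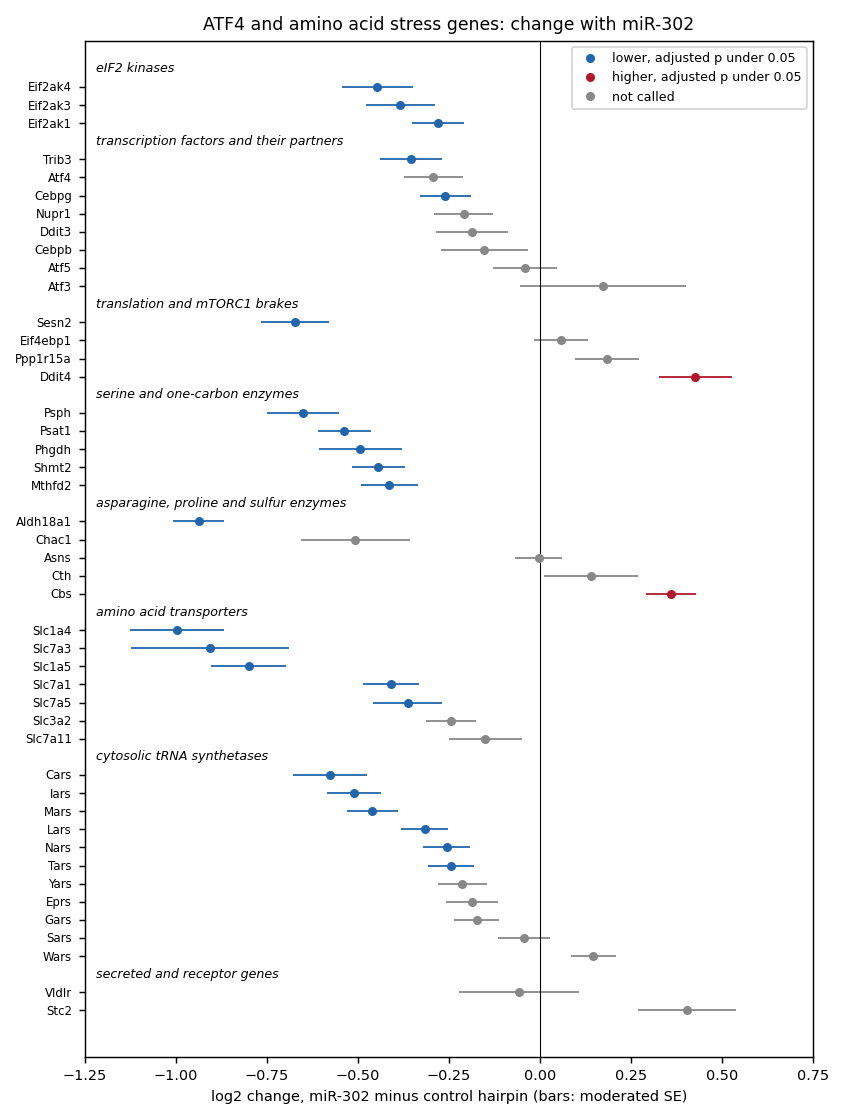
Log2 change (miR-302 minus control hairpin, horizontal axis) of the 45 measured genes, in blocks by role, with limma's moderated standard error as bars and n = 3 arrays a group. Blue points passed the test lower (23 genes), red points higher (2 genes), and grey points were not called (20 genes).

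The control arrays resembled each other, while miR-302 replicate 1 was the least similar of its group: over all genes, its correlation with them was 0.990, against 0.996 between replicates 2 and 3 and 0.996 to 0.997 among the controls. For the stress genes as a whole the 3 miR-302 arrays had nearly the same mean. Their mean difference from the control mean was −0.272, −0.273 and −0.274 for miR-302 replicates 1, 2 and 3 (log2). The equal means hid role groups that differed between these arrays: the kinases were at −0.23 on replicate 1 and at −0.42 and −0.45 on replicates 2 and 3, and the transcription factors at −0.30 against −0.10 and −0.09. The count of falls was 24 without miR-302 replicate 1, and 9, 9 and 10 without control replicates 1, 2 and 3. It was 11 and 13 without miR-302 replicates 2 and 3. The count of rises was 4 without miR-302 replicate 1 and between 0 and 2 without any 1 of the others. Calls over all genes moved as well. Their falls went from 2051 with all arrays to 2911 without miR-302 replicate 1, and to between 1043 and 1216 without any 1 of the others. Their rises went from 1592 to 2484, and to between 685 and 861. Of the 25 calls, 9 were made in every fit that left out 1 array: Psat1, Psph, Shmt2, Aldh18a1, Slc1a4, Slc1a5, Sesn2, Mars and Iars. The median change stayed between −0.28 and −0.26 in these fits. The other calls were lost in at least 2 of the 6 fits, and all those of the kinases, Trib3, Cebpg, Phgdh, Slc7a3, Nars, Tars and Lars in every fit but the one without miR-302 replicate 1. Quantile normalization ended the calls of Eif2ak1, Eif2ak3, Cebpg, Trib3 and Tars. An unmoderated test ended those of Eif2ak3, Eif2ak4, Trib3, Ddit4, Phgdh, Slc7a3 and Slc7a5.

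**Figure D2:**
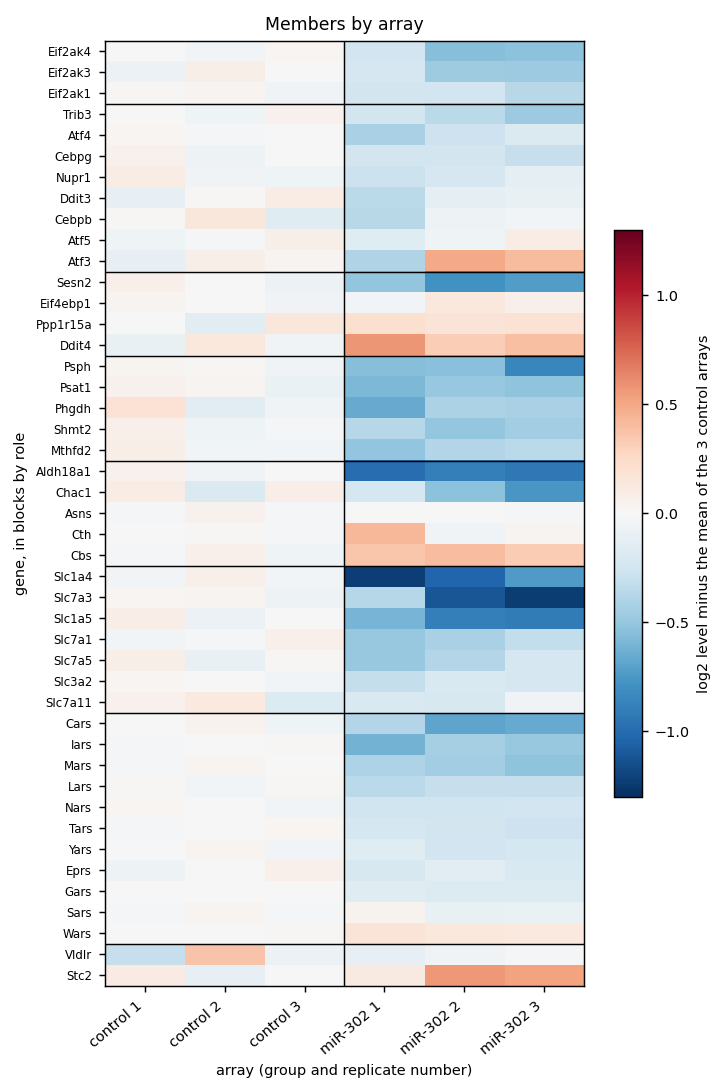
Log2 level of each measured gene (rows, in blocks by role) on each of the 6 arrays (columns), minus the mean of the 3 control arrays, from blue (lower) to red (higher). The blue of the serine enzymes, the transporters and most tRNA synthetases runs across all 3 miR-302 arrays, while Atf3, Cth and Slc7a3 differ between miR-302 replicate 1 and the other 2.

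The stem cell label was checked against 8 marker genes. With all 6 arrays limma called none of them (2 lower and 1 higher at an unadjusted p under 0.05, and none in an unmoderated test). Their mean log2 level was 10.56 to 10.60 on the control arrays and 10.40 to 10.67 with miR-302. Of 8 trophectoderm markers, genes of the outer layer of the early embryo, 6 rose, and their mean level went from between 6.51 and 6.65 to between 7.76 and 8.47. Their mean rise was 1.20 in miR-302 replicate 1 and 1.91 in replicates 2 and 3, while their median rise was 1.19, 1.42 and 1.40. Krt8 and Krt18 rose most. Krt8 read 10.43, 12.07 and 12.11 on the miR-302 arrays, and Krt18 read 9.86, 11.82 and 11.68. Gata3 was highest on replicate 1 (7.78 against 7.45 and 7.68). The mean change of all stress genes was −0.27 on all 3 miR-302 arrays. Role groups within that mean differed, as given above: the kinases were lower on replicates 2 and 3 than on replicate 1, and the transcription factors lowest on replicate 1. The part of these markers in the result was not tested. Of 8 primitive endoderm markers 4 rose and Gata4 fell (means of 5.53 to 5.67 against 6.0 to 6.03), and of 8 feeder fibroblast markers Thy1 fell and 7 were not called (means of 5.20 to 5.27 against 5.30 to 5.43). In each of the 5 fits that kept miR-302 replicate 1 and left out another array, 2 primitive endoderm markers were higher and neither Gata4 nor Thy1 was called, while 5 or 6 trophectoderm markers were higher. Without miR-302 replicate 1, 2 stem cell markers, Sox2 and Zfp42, were called lower (−0.44 and −0.37). In that fit all 8 trophectoderm markers were higher, 4 primitive endoderm markers were higher and 1 lower, and 1 feeder marker was higher and 2 lower. In these bulk samples fewer cells of a type and less RNA per cell cannot be told apart. The scale has no true 0, so no list can be called absent.

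**Figure D3:**
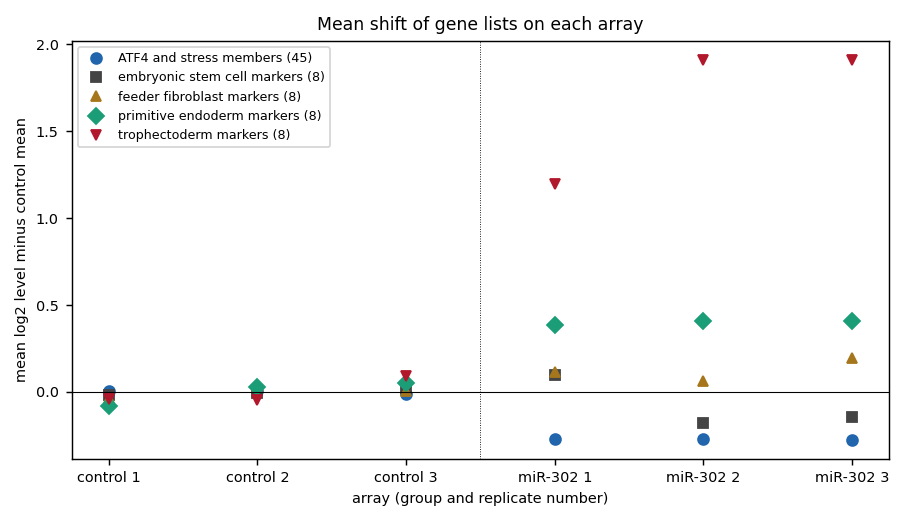
Mean log2 level minus the control mean (vertical axis) on each array for the 45 stress genes and for 4 lists of 8 cell type markers. The mean of all stress genes sits at −0.27 on all 3 miR-302 arrays, a mean over role groups that differ between these arrays. The trophectoderm markers sit at 1.20 on replicate 1 and at 1.91 on replicates 2 and 3, where their medians were 1.19, 1.42 and 1.40 in order of replicate.

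The eIF2 kinases start the response, and the 3 on the list all fell, beside 9.25% of all genes. All 3 lay at or above the median level. They were lower too when such genes were fitted alone, beside 22.4% of those genes. Eif2ak4 encodes GCN2, which is activated by uncharged tRNA. Its control arrays read 7.94, 7.90 and 7.96 and its miR-302 arrays 7.68, 7.38 and 7.40 (log2 change −0.45 ± 0.10 SE, adjusted p = 0.0245). Eif2ak3, which encodes PERK, the kinase of the endoplasmic reticulum, went from 8.27, 8.42 and 8.34 to 8.13, 7.88 and 7.87 (adjusted p = 0.0382). Eif2ak1, which encodes the haem-regulated kinase HRI, went from 9.21, 9.23 and 9.15 to 8.96, 8.95 and 8.84 (adjusted p = 0.0397). The groups did not overlap for any of the 3 genes, and miR-302 replicate 1 lay nearest to the controls for all of them. The row of Eif2ak1 is its own, but its gene overlaps Aimp2 and Ankrd61. Of the fits that left out 1 array, only that without miR-302 replicate 1 kept these calls. A further eIF2 kinase gene, Eif2ak2, is not on the list and was named after its value was seen. It changed by −0.28 and was not called (adjusted p = 0.0581).

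Among the transcription factors, 2 of 8 fell (25%, beside 9.25% of all genes) and 6 were not called. All 8 lay at or above the median level. When such genes were fitted alone, 22.4% of them were lower, and Cebpg, Trib3 and Atf4 were called lower. Atf4 itself read 8.89, 8.84 and 8.85 in control cells and 8.44, 8.59 and 8.67 with miR-302. The groups did not overlap, but the change of −0.29 ± 0.08 (SE) did not pass the test (adjusted p = 0.0531, 95% interval −0.49 to −0.10). Its adjusted p lay on either side of the threshold, since it passed with an intensity trend and a robust prior, with array weights, with arrays centred on their median and among genes at or above the median level.

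Cebpg, which encodes a C/EBP partner of ATF4, fell from 8.24, 8.11 and 8.19 to 7.94, 7.94 and 7.88 (log2 change −0.26 ± 0.07 SE, adjusted p = 0.0478). Trib3 encodes a pseudokinase that is induced by ATF4 and holds it back. It fell from 7.22, 7.16 and 7.27 to 6.98, 6.87 and 6.74 (−0.35 ± 0.08 SE, adjusted p = 0.0337). Ddit3, the gene of the factor CHOP that acts in prolonged stress, had overlapping groups, with 6.44, 6.56 and 6.64 against 6.20, 6.43 and 6.45 (adjusted p = 0.258). Cebpb, Nupr1 and Atf5 changed by −0.15, −0.21 and −0.04 and were not called.

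Atf3, a stress-induced factor downstream of ATF4, split the miR-302 arrays. It read 6.88, 7.06 and 7.02 in control cells, 6.60 on the first miR-302 array, and 7.48 and 7.40 on the other 2. The first was below all controls and the other 2 above them. The change of 0.17 ± 0.23 (SE) did not pass the test (adjusted p = 0.674), and without replicate 1 it was 0.45 (adjusted p = 0.0123).

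The genes that brake translation and growth signalling moved in both directions. Sesn2 encodes sestrin 2, a leucine sensor that restrains the growth kinase complex mTORC1 and is a target of both ATF4 and p53. It fell from 10.02, 9.96 and 9.88 to 9.44, 9.17 and 9.23, a change of −0.67 ± 0.09 (SE; 1.59-fold, adjusted p = 0.00545). Ddit4 encodes REDD1, another inhibitor of mTORC1 that p53 and low oxygen also induce. It rose from 7.04, 7.27 and 7.09 to 7.71, 7.45 and 7.52, by 0.43 ± 0.10 (SE; adjusted p = 0.0322). Thus these 2 brakes on the same complex changed in opposite directions, each with groups that did not overlap. The call of Ddit4 was lost without control replicate 1 or 3 or miR-302 replicate 2 or 3. Ppp1r15a, which encodes the phosphatase subunit GADD34 that reverses eIF2 phosphorylation, read 7.33, 7.20 and 7.48 against 7.54, 7.50 and 7.52 and was not called (adjusted p = 0.218). Eif4ebp1, which encodes the translation repressor 4E-BP1, changed by 0.06 (adjusted p = 0.673).

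In the serine and one-carbon pathway 5 of 5 genes fell, beside 9.25% of all genes. No groups overlapped, where 19.0% of all genes had every miR-302 array below every control array. All 5 lay at or above the median level. They were lower too when such genes were fitted alone, beside 22.4% of those genes. Phgdh encodes the first enzyme of the pathway, which draws on a glycolytic intermediate. It read 7.50, 7.18 and 7.27 in control cells and 6.66, 6.91 and 6.90 with miR-302 (−0.49 ± 0.11 SE, adjusted p = 0.0300). Psat1, the gene of the aminotransferase that follows, read 10.02, 10.00 and 9.88 against 9.38, 9.47 and 9.44 (−0.54 ± 0.07 SE, adjusted p = 0.00509). Psph, the gene of the phosphatase that releases serine, read 7.82, 7.80 and 7.74 against 7.23, 7.24 and 6.94 (−0.65 ± 0.10 SE, adjusted p = 0.00742). The mRNAs for all 3 steps from phosphoglycerate to serine were thus lower, by 1.41-fold, 1.45-fold and 1.57-fold in the order of the pathway, and protein was not measured. The calls of Psat1 and Psph held in all 6 fits that left out 1 array, and that of Phgdh in 1.

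In the mitochondrion, Shmt2 passes the one-carbon unit of serine to folate. It read 11.78, 11.66 and 11.70 in control cells and 11.34, 11.21 and 11.26 with miR-302 (−0.44 ± 0.07 SE, adjusted p = 0.00955). Mthfd2, which oxidises that unit, read 10.38, 10.26 and 10.26 against 9.79, 9.92 and 9.95 (−0.41 ± 0.08 SE, adjusted p = 0.0154). The call of Mthfd2 was lost without control replicate 1, 2 or 3.

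The other amino acid enzymes did not share a direction: of 5, 1 fell, 1 rose and 3 were not called. Of all genes 9.25% fell and 7.18% rose. Aldh18a1, which encodes the first enzyme of proline synthesis from glutamate, had the smallest adjusted p of all members. It read 9.79, 9.68 and 9.72 in control cells and 8.74, 8.84 and 8.80 with miR-302, a change of −0.94 ± 0.07 (SE; 1.91-fold, adjusted p = 0.000742). Cbs, which encodes the enzyme that joins homocysteine to serine on the way to cysteine, rose from 7.72, 7.80 and 7.68 to 8.09, 8.13 and 8.06 (0.36 ± 0.07 SE, adjusted p = 0.0159). Its call was lost without control replicate 1 or 3 or miR-302 replicate 2. Cth, the gene of the next enzyme on that route, was 10.50, 10.52 and 10.48 in control cells, 10.93 in miR-302 replicate 1, and 10.45 and 10.54 in the other 2, and was not called (adjusted p = 0.531).

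Asns, which encodes asparagine synthetase and is among the best known ATF4 targets, showed almost no difference. It read 10.82, 10.90 and 10.82 in control cells and 10.85, 10.85 and 10.83 with miR-302. The difference was below 0.01 in size, with a 95% interval of −0.16 to 0.15, which does not reach the change measured for any of the 23 genes that fell. Its promoter holds the element shown above. Chac1, which encodes a glutathione-degrading enzyme and also holds the element, read 6.91, 6.63 and 6.90 against 6.58, 6.28 and 6.06. It changed by −0.51 ± 0.15 (SE) and did not pass the test (adjusted p = 0.0635), but did so without miR-302 replicate 1 (−0.64, adjusted p = 0.0144).

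**Figure D4:**
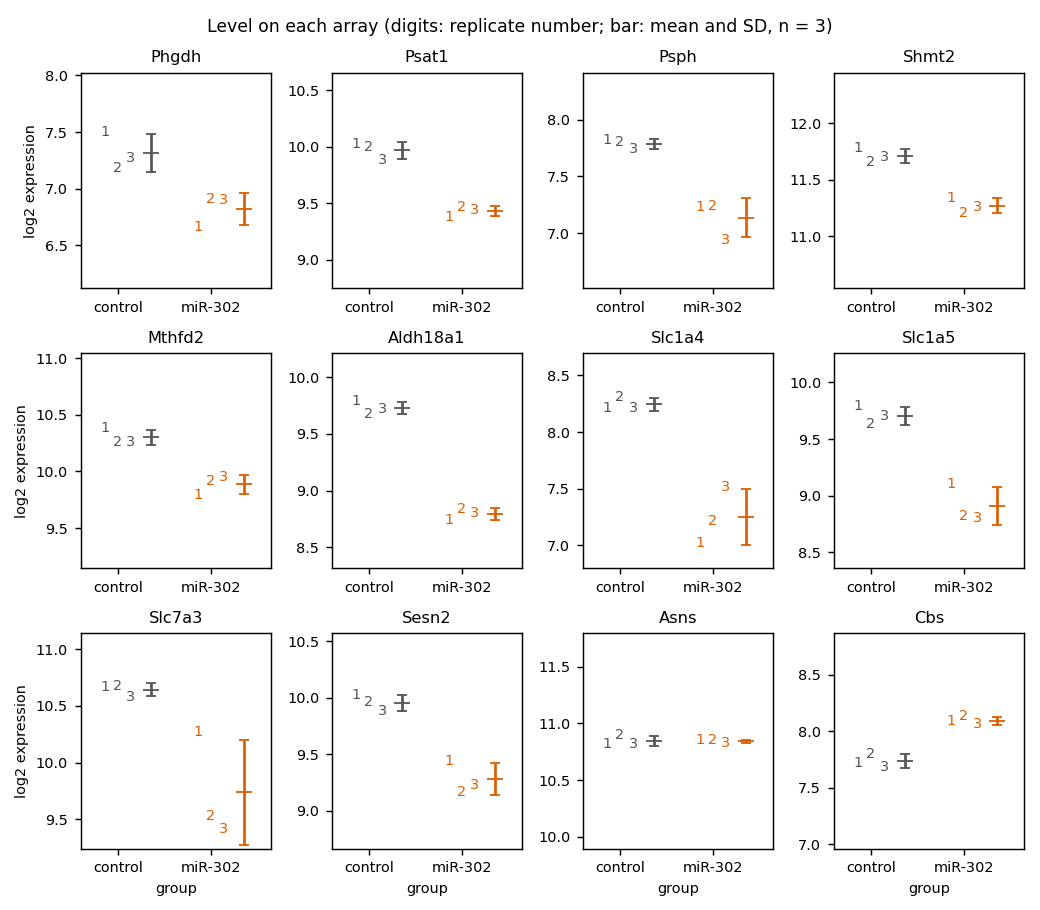
Log2 expression (vertical axes, all spanning the same range) of 12 genes on each array, with digits for the replicate number and a bar for the mean and SD of 3 arrays. The control and miR-302 groups are apart for 11 of the 12 genes, lower for 10 and higher for Cbs, and overlap for Asns. Those 11 are called genes, and all 25 called members had groups apart, so this count follows from the choice of genes.

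Of 7 amino acid transporters 5 fell (71.4%, beside 9.25% of all genes) and 2 were not called, and this group held 3 of the 4 largest falls. All but Slc7a11 lay at or above the median level. These 6 were lower when such genes were fitted alone, beside 22.4% of those genes. Slc1a4 encodes ASCT1, a carrier of serine, alanine and cysteine. It fell from 8.21, 8.31 and 8.21 to 7.02, 7.21 and 7.51, a change of −1.0 ± 0.13 (SE; 2.0-fold, adjusted p = 0.00424). Slc1a5, which encodes the glutamine carrier ASCT2, fell from 9.79, 9.63 and 9.70 to 9.10, 8.82 and 8.80 (−0.80 ± 0.10 SE, 1.74-fold, adjusted p = 0.00424). A second, dimmer row of Slc1a5 changed by −0.28.

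The arginine and lysine carriers Slc7a3 and Slc7a1 fell too. Slc7a3 read 10.67, 10.68 and 10.58 in control cells, 10.27 on the array of miR-302 replicate 1, and 9.53 and 9.41 on the other 2. All 3 lay below the controls, but replicate 1 by much less: the change was −0.91 ± 0.22 (SE; adjusted p = 0.0332), and −1.17 without that array. Its gene overlaps Snx12. Slc7a1 read 9.16, 9.17 and 9.27 against 8.71, 8.78 and 8.88 (adjusted p = 0.0149).

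The carrier of large neutral amino acids such as leucine is a pair of proteins from Slc7a5 and Slc3a2. Slc7a5 fell from 12.00, 11.82 and 11.94 to 11.43, 11.54 and 11.70 (−0.36 ± 0.10 SE, adjusted p = 0.0445), a call that held in 1 of the 6 fits that left out an array, the one without miR-302 replicate 3. Slc3a2 went from 12.12, 12.10 and 12.05 to 11.78, 11.89 and 11.87, groups that did not overlap, and narrowly missed the threshold (adjusted p = 0.0563). Slc7a11, the cystine carrier that pairs with the same Slc3a2 protein, was at 3.79 ± 0.16 and 3.64 ± 0.09 (SD, n = 3), the lowest levels of the list.

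Of 11 cytosolic tRNA synthetases, which attach amino acids to tRNAs, 6 fell (54.5%, beside 9.25% of all genes) and 5 were not called. Without miR-302 replicate 1, 7 were lower, and without any 1 of the other arrays 2 or 3. All 11 lay at or above the median level. When such genes were fitted alone, 22.4% of them were lower. In that fit Eprs, Gars and Yars were called lower as well, and Wars higher. Cars, for cysteine, fell most, from 9.68, 9.72 and 9.61 to 9.29, 8.98 and 9.01 (−0.58 ± 0.10 SE, adjusted p = 0.0116). Iars, for isoleucine, fell from 11.84, 11.86 and 11.88 to 11.25, 11.43 and 11.37 (−0.51 ± 0.07 SE, adjusted p = 0.00640). Mars, for methionine, fell from 10.24, 10.30 and 10.26 to 9.87, 9.81 and 9.74 (−0.46 ± 0.07 SE, adjusted p = 0.00716). None of these 3 genes had overlapping groups. Mars overlaps Ddit3, whose own change was not called.

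Smaller falls were called for Lars (leucine, −0.32 ± 0.06 SE), Nars (asparagine, −0.26 ± 0.06 SE) and Tars (threonine, −0.24 ± 0.06 SE), with adjusted p from 0.0198 to 0.0434. Yars, Eprs and Gars changed by −0.21, −0.19 and −0.17 and had groups that did not overlap, but were not called. Sars changed by −0.04, with overlapping groups. Wars, for tryptophan, went the other way, from 10.49, 10.49 and 10.52 to 10.67, 10.64 and 10.63. Its change of 0.15 ± 0.06 (SE) did not pass the test (adjusted p = 0.171). It is also an interferon-induced gene, and it overlaps Wdr25.

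Neither of the genes for secreted or surface proteins was called. Stc2, which encodes the secreted glycoprotein stanniocalcin 2, read 6.11, 5.90 and 6.0 in control cells, 6.12 on the array of miR-302 replicate 1, and 6.57 and 6.53 on the other 2. Its change of 0.40 ± 0.13 (SE) did not pass the test (adjusted p = 0.0921), and was 0.55 without replicate 1 (adjusted p = 0.00701). Vldlr, a lipoprotein receptor gene, had the next lowest levels, at 4.61 ± 0.34 and 4.55 ± 0.05 (SD, n = 3).

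Genes of the same pathways outside the 48 were counted from 7 lists chosen by function, with 104 genes measured, of which 18 fell (17.3%) and 10 rose (9.62%), against 9.25% and 7.18% of all genes. Most of them, 99 of 104, lay at or above the median level. Among such genes alone 30 of the 99 were lower and 17 higher, beside 22.4% and 16.4% of all genes at that level. The other cytosolic tRNA synthetases can be set beside the members. Of 9 other cytosolic synthetase or scaffold genes, Eef1e1, which encodes a scaffold protein of the synthetase complex, rose by 0.27 ± 0.07 (SE; adjusted p = 0.0362), and 8 were not called. Their median change was 0.01, against −0.24 for the 11 members. No test was made of that difference. Among the other 8, Vars and Kars had the smallest p, with changes of −0.20 and −0.25. Of 16 mitochondrial tRNA synthetases, all at or above the median level, 4 fell (25%) and 1 rose (6.25%), with a median of −0.10. Pars2 fell by 0.43, and Cars2 and Aars2 fell by 0.34 and 0.32 (log2). The call of Pars2 held in all 6 fits that left out 1 array, and those of Eef1e1, Cars2 and Aars2 in 1, the fit without miR-302 replicate 1.

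The kinases act on eIF2, which its exchange factor eIF2B recharges. Of 14 genes of these factors and their regulators 2 rose (14.3%, beside 7.18% of all genes) and 12 were not called, with a median of 0.18. All 14 lay at or above the median level. Of such genes 16.4% were higher when fitted alone, but that fit calls more genes than the one counted here. Eif2b1, a regulatory subunit of eIF2B, rose from 9.52, 9.53 and 9.51 to 9.79, 9.91 and 9.89 (0.34 ± 0.07 SE, adjusted p = 0.0177). Mcts1, a factor for reinitiation of translation, rose by 0.41 ± 0.09 (SE; adjusted p = 0.0227). Gcn1, which encodes the activator of GCN2, changed by 0.26 ± 0.07 (SE) and was not called (adjusted p = 0.050). The calls of Eif2b1 and Mcts1 likewise held only without miR-302 replicate 1 among these fits.

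Other enzymes of amino acid and folate metabolism fell in 7 of 17 cases (41.2%) and rose in 2 (11.8%), beside 9.25% and 7.18% of all genes. Of the 17, 16 lay at or above the median level. Among such genes fitted alone 22.4% were lower and 16.4% higher, in a fit that calls more genes than the one counted here. Gpt2, which encodes the mitochondrial alanine aminotransferase and is a reported ATF4 target, had the largest fall of these lists. It read 10.57, 10.69 and 10.66 in control cells and 9.50, 8.64 and 8.76 with miR-302, a change of −1.67 ± 0.22 (SE; 3.19-fold, adjusted p = 0.00437), and of −1.94 without miR-302 replicate 1. Mthfd1l, which continues the mitochondrial folate route after Mthfd2, fell from 9.55, 9.68 and 9.67 to 8.99, 9.07 and 9.08 (−0.59 ± 0.07 SE, adjusted p = 0.00387). Gclc, which encodes the catalytic subunit for the first step of glutathione synthesis, fell by 0.46 on the log2 scale (adjusted p = 0.00787). Each of these 3 calls was made in every fit that left out 1 array.

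Of 15 other amino acid transporters 4 fell (26.7%) and 2 rose (13.3%), beside 9.25% and 7.18% of all genes. Of the 15, 12 lay at or above the median level. Among such genes fitted alone 22.4% were lower and 16.4% higher, in a fit that calls more genes than the one counted here. Slc38a2, which encodes SNAT2, a glutamine and alanine carrier induced by amino acid shortage, fell from 12.11, 11.99 and 12.03 to 11.66, 11.49 and 11.43 (−0.52 ± 0.09 SE, adjusted p = 0.00963). The lysosomal and surface carrier gene Slc36a1 and the taurine carrier gene Slc6a6 fell by 0.63 and 0.59 (log2), also in every fit that left out 1 array. Of 23 genes of amino acid sensing upstream of mTORC1 3 fell (13%) and 2 rose (8.7%), beside 9.25% and 7.18% of all genes. All 23 lay at or above the median level. The shares of such genes fitted alone, 22.4% lower and 16.4% higher, are again from the fit with more calls. They are not a like measure for the counts of this list. Rragb, which encodes a Rag GTPase, fell from 7.96, 8.11 and 8.02 to 7.29, 7.10 and 6.75 (−0.98 ± 0.14 SE, adjusted p = 0.00598). Wdr59, a subunit of the GATOR complex, fell by 0.54 (log2), while the subunits of the same pathway's inhibitory complex split. Nprl3 rose by 0.31 ± 0.06 (SE; adjusted p = 0.0218), and its partner Nprl2, named after its value was seen, fell by 0.41 (log2, adjusted p = 0.0309). The calls of Rragb and Wdr59 held in all 6 fits that left out 1 array, that of Nprl2 in 2, and that of Nprl3 in the one without miR-302 replicate 1.

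Among 10 mitochondrial stress chaperones and proteases limma called none (2 lower at an unadjusted p under 0.05, and 1 lower in an unmoderated test). Lonp1, a protease of the mitochondrial matrix, Dele1, which relays mitochondrial stress to HRI, and Afg3l2, an inner membrane protease, changed by −0.23, −0.18 and −0.16.

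**Figure D5:**
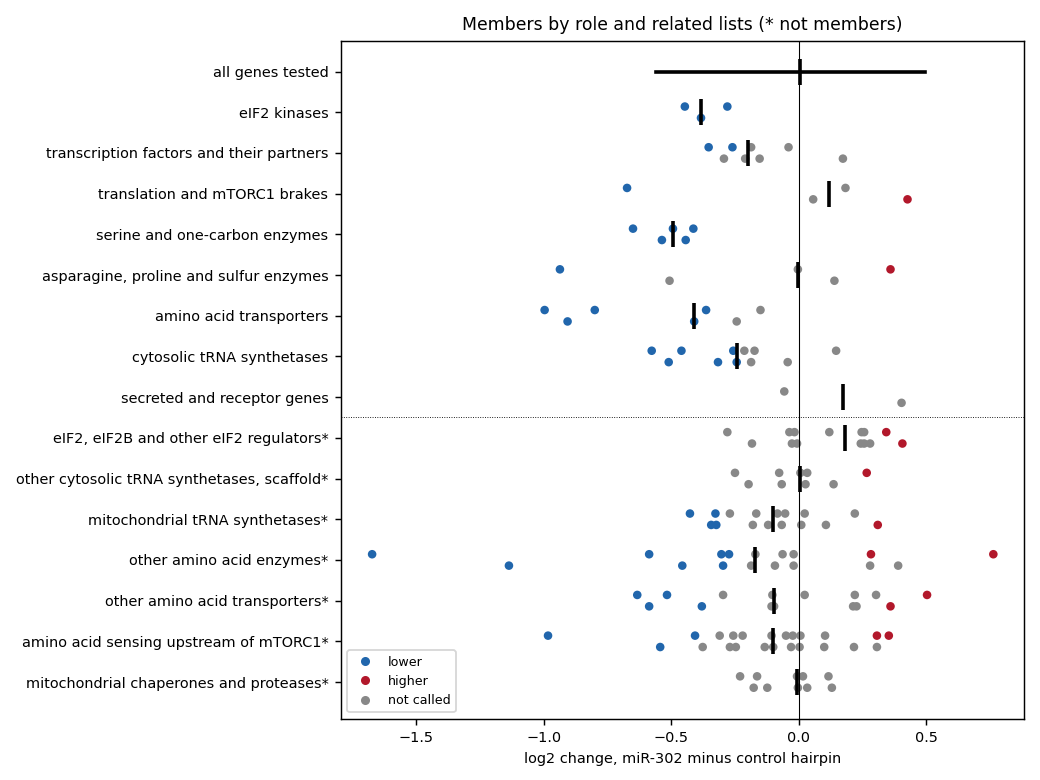
Log2 change (horizontal axis) of each gene in the 8 role groups of the stress genes and, below the dotted line, in the 7 lists of related genes marked with an asterisk, with a black bar at each list's median. The black line for all genes tested runs from the 5th to the 95th percentile (−0.56 to 0.50), and the medians of the serine enzymes (−0.49), the transporters (−0.41) and the kinases (−0.38) lie left of 0 inside it.

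On the array, 10 of the 45 measured genes overlap another protein-coding gene in RefSeq, among them Psph, Shmt2, Cebpg and Atf5 beside those named above, and whether their probes read only 1 of the genes was not tested.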

How the data were processed

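Total RNA of 6 samples was biotin-labelled and hybridised to single-colour arrays, per the labels' protocols. The authors deposited 1 table of 33649 rows with RMA values, per the submitters' processing notes, taken as log2 because RMA gives base 2. The sources used here do not give the RMA version or annotation release. Array medians were 5.60 to 5.62, and 0 columns lacked a sample. Rows with 1 gene in the platform annotation were kept (23521), and the row with the highest mean stood for a gene, leaving 22180 genes, 21994 of them matched to RefSeq. Older symbols were matched by Entrez identifier.

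Limma 3.58.1 in R 4.3.3 (lmFit, eBayes, two-sided, Benjamini-Hochberg over all genes, threshold 0.05) compared the 3 miR-302 with the 3 control arrays. The fit was tested on simulated data. SE is the moderated standard error. The members and lists were chosen with earlier results of these data known. All measured members were open to naming, up to 3 genes of each related list by smallest p, and of marker lists only counts, ranges and defining genes.

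Alternatives were a replicate block, leaving out each array, a level filter, trend and robust prior, mean of rows, quantile normalization, median centring, array weights, an unmoderated test and a 1.5-fold minimum. Figures used matplotlib 3.10.9 in Python 3.11.15. Sequences are RefSeq's (GRCm38.p6).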

Additional observations from a re-analysis of the deposited data

How the results depend on the processing

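All 25 called stress genes kept their direction under every alternative run, and 13 kept their call with the replicate number as a block. The numbers do not pair the samples: deviations of same-numbered arrays correlated by 0.00845 to 0.0192. With that block 12 stress genes were called lower and 1 higher, 11 related genes were called, and 2293 genes in all (3643 without it). Leaving out 1 array gave 9 to 24 stress genes lower, 0 to 4 higher, 11 to 40 related genes and 1728 to 5395 genes in all, with a median change of the stress genes from −0.28 to −0.26. Among genes at or above the median level 4 stress genes were higher, their median was −0.28, and 47 of 99 related genes were called (28 of 104 with all genes). With an intensity trend and robust prior 45 related genes were called. Array weights called 43, and 5621 genes in all. An unmoderated test called 2341 genes. With a change of at least 1.5-fold required, 6 stress genes were lower and 0 higher, with 7 related genes and 1561 in all. In that last setting the calls are fewer by construction. For the others the cause was not tested. The median was −0.24 after quantile normalization and −0.28 with arrays centred on their median. Signs turned for 4 genes that were not called. After quantile normalization Atf5 changed by 0.0175 and Asns by 0.005. Leaving out 1 array gave −0.11 to 0.0183 for Atf5, −0.0167 to 0.0233 for Asns, −0.005 to 0.235 for Cth and −0.205 to 0.13 for Vldlr. With 3 arrays a group, and no detection calls used here, little can be said of genes at low levels such as Slc7a11 and Vldlr.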
